A study of Mus musculus with 6 samples.

Results

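The insulin-like growth factor (IGF) axis and the stanniocalcins were followed in E9.5 mouse hearts with and without *Smyd1*, the striated muscle methyltransferase gene. This set comprises 10 genes of the 54532 in the raw count table. It holds the ligand genes *Igf1* and *Igf2*, the receptor genes *Igf1r* and *Igf2r*, the binding protein genes *Igfbp2*, *Igfbp3*, *Igfbp4* and *Igfbp5*, and the stanniocalcin genes *Stc1* and *Stc2*. The genes were taken by symbol from a list that was chosen by function with the *Smyd1-KO* against WT differences of these same hearts already known. The differences between genotypes in these 10 genes are therefore given as a description, without *P*-values, and nothing is supported with them. All 10 genes had enough counts for the fit across 19372 genes.

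RNA-seq libraries were made from single hearts dissected at E9.5, 3 from *Smyd1-KO* and 3 from WT embryos, with no treatment in either group. The *Smyd1-KO* embryos are homozygous for a germline null allele. The loss is not restricted to cardiomyocytes by a Cre driver, both sexes were used, and each library is 1 whole heart, so that all cardiac cell types contribute to each value. Between 48627825 and 64217529 counts fell on genes per heart. Levels are given as CPM, counts scaled to a common library total with TMM factors. For *Smyd1* itself the WT hearts 1, 2 and 3 gave 414, 379 and 270 CPM, and the *Smyd1-KO* hearts 101, 222 and 206 CPM. *Smyd1* reads therefore remained in every *Smyd1-KO* heart, all below the WT range. Here edgeR did not call the gene at an adjusted *P* of 0.0973 (log2 fold change -1.005 with a standard error, SE, of 0.300). The study, which used DESeq2, reported a significant decrease of *Smyd1* RNA in *Smyd1-KO* hearts.

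IGF1 and IGF2 are secreted growth factors that signal through the tyrosine kinase receptor IGF1R, whereas IGF2R carries IGF2 to lysosomes and does not relay a growth signal. In the circulation and the matrix both ligands are held by IGF-binding proteins (IGFBPs), and proteases such as PAPPA release them by cutting IGFBP4 and IGFBP5. The stanniocalcins STC1 and STC2 are secreted glycoproteins that inhibit PAPPA and so keep binding proteins intact. In the embryonic heart, IGF2 from the epicardium and endocardium is a known mitogen for the ventricular wall.

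In *Smyd1-KO* hearts both stanniocalcins and a pair of binding proteins were higher, while no ligand or receptor gene was called. *Stc2* was 7.86-fold, *Stc1* 6.53-fold, *Igfbp2* 2.82-fold and *Igfbp3* 2.31-fold higher. The log2 fold changes of the other 6 genes lay between -0.31 for *Igfbp5* and 0.27 for *Igf1r*. A gene was called where the adjusted *P* was below 0.05 and log2 fold change reached 0.5 in size, the limits used in the study. By these, edgeR called 4 of the 10 genes higher in *Smyd1-KO* hearts, where 2.86% of all tested genes were called higher. It called 0 lower, where the share over all tested genes was 1.42%. DESeq2 called the same 4 higher and 0 lower, against 1126 higher and 625 lower of the 19605 genes that it tested. In 6 of the 10 genes the hearts of the genotypes did not overlap, as in 31.3% of all tested genes. The median log2 fold change was 0.19 over the 10 genes and 0.00 over all tested genes (-0.003 before rounding).

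**Figure D1:**
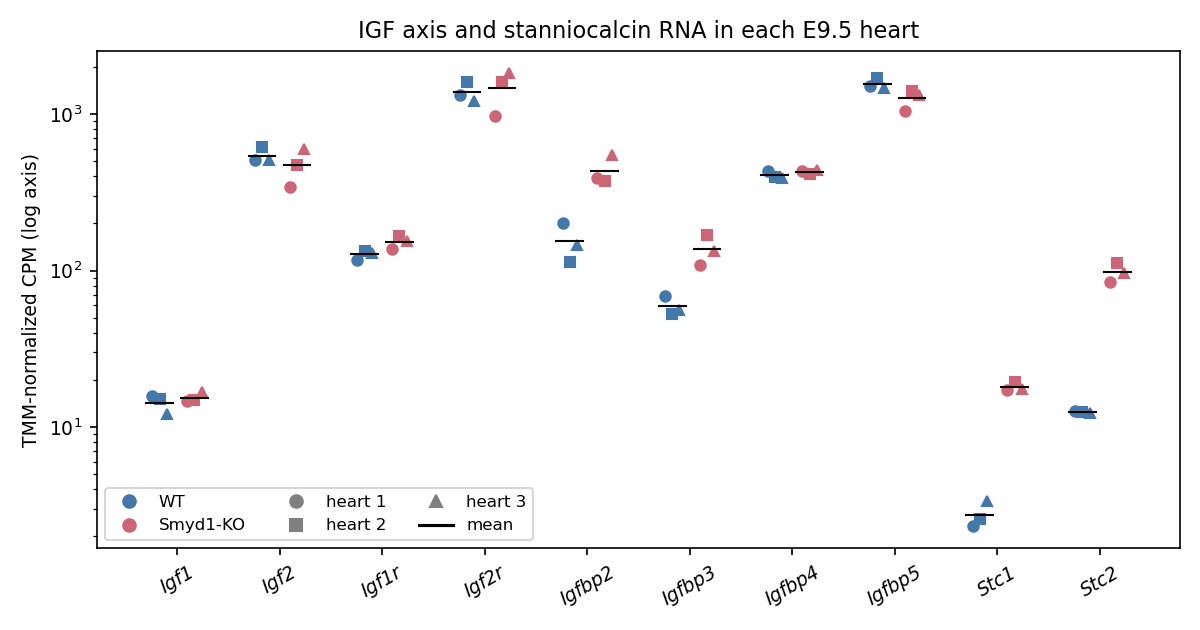
TMM-normalized CPM (log axis) of the 10 genes in each heart, with WT in blue, *Smyd1-KO* in red, the symbol giving the heart number and the line the mean of 3 hearts. The 2 genotypes are farthest apart in *Stc1* and *Stc2*, where all *Smyd1-KO* hearts lie at 17.1 CPM or more and 85.0 CPM or more, and all WT hearts at 3.35 CPM or less and 12.6 CPM or less.

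Promoter sequence is shown for the called genes *Stc2*, *Igfbp3* and *Igfbp2*, and for *Igfbp5*, the uncalled neighbor of *Igfbp2*. Windows were matched by symbol in RefSeq (GRCm38.p6) for 9 of the 10 genes, the exception being *Stc1*. Each line gives the 250 bases before an annotated start, 5′ to 3′ on the gene's strand. Capitals mark ACGTG and GCGTG on either strand, the core letters of the hypoxia response element. A palindromic CACGTG counts once per strand. The windows are chr11:31370062-31370311 (minus strand) for *Stc2*, chr11:7213924-7214173 (minus) for *Igfbp3*, chr1:72824230-72824479 (plus) for *Igfbp2* and chr1:72874866-72875115 (minus) for *Igfbp5*.
Stc2: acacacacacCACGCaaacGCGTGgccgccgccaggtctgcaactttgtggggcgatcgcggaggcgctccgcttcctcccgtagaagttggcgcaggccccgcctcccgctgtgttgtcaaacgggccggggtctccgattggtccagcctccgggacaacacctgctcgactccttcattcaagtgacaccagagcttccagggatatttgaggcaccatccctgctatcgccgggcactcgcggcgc
Igfbp3: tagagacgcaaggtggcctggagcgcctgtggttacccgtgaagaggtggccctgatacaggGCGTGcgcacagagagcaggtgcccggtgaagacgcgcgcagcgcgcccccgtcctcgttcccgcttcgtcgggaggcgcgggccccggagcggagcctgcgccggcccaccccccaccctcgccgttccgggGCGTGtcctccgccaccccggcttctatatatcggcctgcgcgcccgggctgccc
Igfbp2: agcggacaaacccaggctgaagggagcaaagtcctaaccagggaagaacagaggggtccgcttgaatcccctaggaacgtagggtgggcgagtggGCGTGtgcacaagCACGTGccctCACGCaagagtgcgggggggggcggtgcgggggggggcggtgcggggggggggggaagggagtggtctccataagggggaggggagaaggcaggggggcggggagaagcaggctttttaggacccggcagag
Igfbp5: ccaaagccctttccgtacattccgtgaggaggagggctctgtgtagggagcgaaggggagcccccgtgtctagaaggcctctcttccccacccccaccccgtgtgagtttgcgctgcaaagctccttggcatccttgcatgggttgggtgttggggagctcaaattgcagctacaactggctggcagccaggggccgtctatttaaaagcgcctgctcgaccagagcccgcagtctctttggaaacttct

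The *Igfbp2* window held 4 matches, at 155 to 132 bases before the start, and the *Igfbp3* and *Stc2* windows 2 each. The *Igfbp5* and *Igfbp4* windows held 0. Matches were not limited to called genes, since the window of *Igf2r* held 6 and that of *Igf1r* 3. The window of a further *Igfbp2* start, chr1:72825137-72825386, held 0. Of 32851 windows of the same length in the table, 38.6% had at least 1 match and 6.58% had 3 or more. The letters TGATGNAA, part of the amino acid response element bound by ATF4, were found on either strand in none of the 13 windows of these genes and in 3.45% of all windows. A match describes letters and not a binding site.

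*Stc2* (ENSMUSG00000020303, chromosome 11, 31357307 to 31370074) had 750, 788 and 814 counts in WT hearts 1, 2 and 3 and 4133, 6586 and 5500 counts in *Smyd1-KO* hearts 1, 2 and 3. These correspond to 12.6, 12.4 and 12.2 CPM in WT and to 85.0, 111 and 96.4 CPM in *Smyd1-KO* hearts. The genotypes did not overlap, and the lowest *Smyd1-KO* heart was far above the highest WT heart. The log2 fold change was 2.98 (SE 0.115), the largest of the 10 genes. WT hearts differed in *Stc2* by a coefficient of variation of 1.48%, no more than counting alone gives (3.57%), against 13.6% among *Smyd1-KO* hearts.

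*Stc1* (ENSMUSG00000014813, chromosome 14, 69029238 to 69041804), the paralog, was scarcer. It had 139, 164 and 223 counts in WT hearts 1, 2 and 3 and 832, 1150 and 995 counts in *Smyd1-KO* hearts. In CPM these were 2.33, 2.58 and 3.35 in WT and 17.1, 19.5 and 17.4 in *Smyd1-KO* hearts. The groups were again fully separated, with a log2 fold change of 2.71 (SE 0.177). Per kilobase of exon, *Stc2* was 3.74 ± 0.720 times as abundant as *Stc1* in WT hearts and 4.39 ± 0.319 times in *Smyd1-KO* hearts (SD, n = 3 hearts). These ratios overlapped between the genotypes, with WT hearts at 2.96 to 4.38 and *Smyd1-KO* hearts at 4.03 to 4.65. Leaving out any of the 6 hearts did not end the call of either gene.

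Among tested genes outside the set whose log2 CPM averaged 1 or more, those closest to *Stc2* over the 6 hearts were *Kcne3*, *Ddit4* and *Dpp6*. Likeness was the Euclidean distance of log2 CPM from the WT mean, 0.43 for *Kcne3*, 0.45 for *Ddit4* and 0.46 for *Dpp6* among 13040 genes. *Ddit4*, which encodes the mTORC1 inhibitor REDD1, was at 63.2 to 76.0 CPM in WT and 518 to 607 CPM in *Smyd1-KO* hearts (log2 fold change 2.98, SE 0.114). *Kcne3* encodes a potassium channel subunit and had a log2 fold change of 3.04, and *Dpp6* encodes a channel-associated protein and had 3.13. Their differences between genotypes follow from how they were chosen and are given without a test.

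*Igfbp2* (ENSMUSG00000039323, chromosome 1, 72824503 to 72852474) encodes a binding protein that is abundant in embryonic tissues. It was measured at 203, 114 and 147 CPM in WT hearts 1, 2 and 3 and at 388, 371 and 548 CPM in the *Smyd1-KO* hearts 1, 2 and 3. Every *Smyd1-KO* heart was above every WT heart, and the WT hearts differed more in this gene (coefficient of variation 29.0%) than in any other of the 10. The log2 fold change of *Igfbp2* was 1.497 (SE 0.239). It was 1.32 without WT heart 2 and 1.46 without WT heart 3, and *Igfbp2* was not called in either fit.

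*Igfbp3* (ENSMUSG00000020427, chromosome 11, 7206086 to 7213923), the main carrier of IGFs in adult blood, was measured at 69.0, 52.5 and 55.8 CPM in WT hearts 1, 2 and 3. In *Smyd1-KO* hearts it was at 108, 168 and 133 CPM. The groups did not overlap, and the log2 fold change was 1.21 (SE 0.178). Without WT heart 2 it was 1.13 and without WT heart 3 it was 1.17, and *Igfbp3* was not called in either. *Igfbp1*, which lies tail to tail with *Igfbp3* at a distance of 3539 bases, had at most 32 counts in any heart and was not tested.

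*Igfbp4* (chromosome 11) was the least variable of the binding proteins. It was at 435, 394 and 393 CPM in WT and at 431, 414 and 439 CPM in *Smyd1-KO* hearts, with overlapping groups and a log2 fold change of 0.07 (SE 0.0849). *Igfbp5* (ENSMUSG00000026185, chromosome 1, 72857932 to 72874884) was at 1522, 1692 and 1471 CPM in WT hearts 1, 2 and 3 and at 1045, 1413 and 1320 CPM in the *Smyd1-KO* hearts 1, 2 and 3. Every *Smyd1-KO* heart was below every WT heart, but the log2 fold change of -0.31 (SE 0.134) was not called. Without *Smyd1-KO* heart 1, the lowest, it was -0.19. The genes closest to *Igfbp5* over the 6 hearts were *Zfp133-ps* (distance 0.063), *Miga2* (0.121) and *Fam160b2* (0.126), none of which was called. As with the genes closest to *Stc2*, their differences between genotypes follow from how they were chosen.

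*Igfbp2* and *Igfbp5* are neighbors that point toward each other on chromosome 1. Their ends are 5457 bases apart with 0 annotated genes between them and no shared exon. The log2 fold change was positive in the former and negative in the latter.

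Per kilobase of exon, the RNA of *Igfbp2*, *Igfbp3*, *Igfbp4* and *Igfbp5* summed to 484, 449.5 and 431 CPM per kb in WT hearts 1, 2 and 3. In *Smyd1-KO* hearts the sums were 516, 584 and 658. *Igfbp5* made up 57.3% ± 5.16 of this sum in WT hearts and 35.8% ± 3.90 in *Smyd1-KO* hearts (SD, n = 3). The share of *Igfbp2* was 18.3% ± 4.46 in WT and 40.1% ± 5.35 in *Smyd1-KO* hearts. In *Smyd1-KO* hearts 1 and 3 *Igfbp2* exceeded *Igfbp5* per kilobase (ratios of 1.21 and 1.35), and in *Smyd1-KO* heart 2 it did not (0.854). In WT hearts the ratio was 0.219 to 0.433. Which gene was higher in *Smyd1-KO* heart 2 depended on the length used. With the longest transcript of each gene as its length, a choice added after the data were seen, *Igfbp2* exceeded *Igfbp5* in all 3 *Smyd1-KO* hearts (1.71, 1.21 and 1.91) and in none of the WT hearts (0.310 to 0.611). *Igfbp2* then made up 23.0% ± 5.23 of the sum in WT and 46.6% ± 5.58 in *Smyd1-KO* hearts (SD, n = 3).

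**Figure D2:**
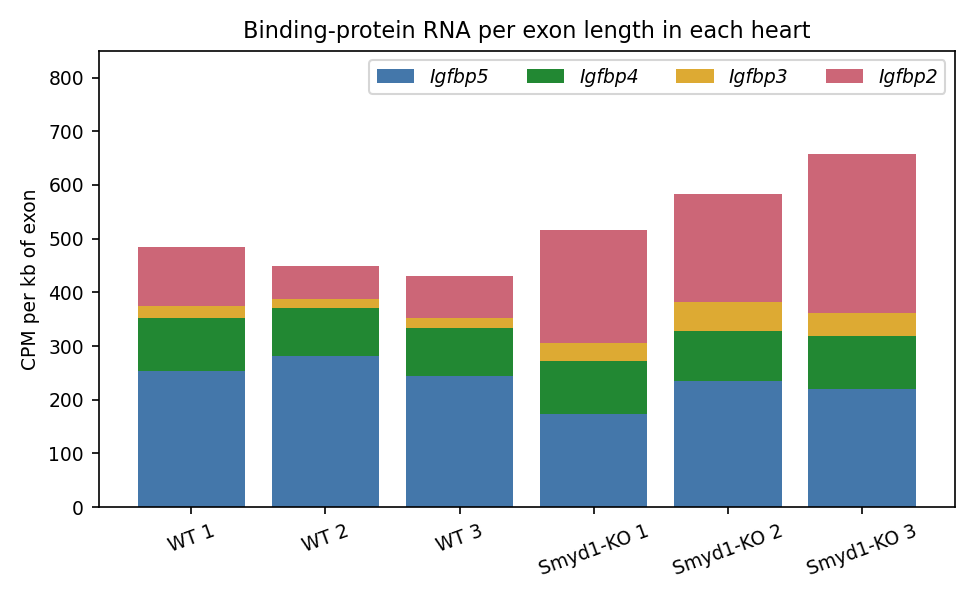
RNA of *Igfbp2*, *Igfbp3*, *Igfbp4* and *Igfbp5* in CPM per kb of exon, stacked for each of the 3 WT and 3 *Smyd1-KO* hearts. The *Igfbp2* segment is wider in all 3 *Smyd1-KO* hearts and the *Igfbp5* segment is the widest in all 3 WT hearts.

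*Igf2* (ENSMUSG00000048583, chromosome 7, 142650766 to 142666816), an imprinted gene read from the paternal allele, was the dominant ligand. It was at 505, 613 and 505 CPM in WT hearts 1, 2 and 3 and at 343, 472 and 594 CPM in the *Smyd1-KO* hearts 1, 2 and 3. The groups overlapped, with a log2 fold change of -0.20 (SE 0.197) that became -0.02 without *Smyd1-KO* heart 1. *Igf1* (chromosome 10) was low, at 15.7, 15.1 and 12.0 CPM in WT and 14.7, 14.9 and 16.6 CPM in *Smyd1-KO* hearts, and the groups overlapped (log2 fold change 0.11, SE 0.139). Per kilobase of exon *Igf2* exceeded *Igf1* by 66.1 ± 9.21 times in WT and by 52.4 ± 10.9 times in *Smyd1-KO* hearts (SD, n = 3).

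*Igf1r* (chromosome 7, 67952827 to 68233668), the signaling receptor gene, was at 117, 134 and 130 CPM in WT hearts and at 137, 166 and 155 CPM in *Smyd1-KO* hearts. The groups were narrowly separated, and the log2 fold change of 0.27 (SE 0.0975) was not called. It met neither the fold limit nor the limit on the adjusted *P*. *Igf2r* (chromosome 17, 12682406 to 12769664), which is read from the maternal allele in most mouse tissues, was at 1320, 1611 and 1220 CPM in WT and at 971, 1598 and 1821 CPM in *Smyd1-KO* hearts. Its groups overlapped (log2 fold change 0.08, SE 0.232). The *Smyd1-KO* hearts spread widely in this gene, and the log2 fold change was 0.31 without *Smyd1-KO* heart 1 and -0.11 without *Smyd1-KO* heart 3.

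*Smyd1-KO* heart 1 had the lowest value of all 6 hearts for *Igf2*, *Igf2r* and *Igfbp5*. It was also the lowest in *H19*, the maternally expressed RNA that shares enhancers with *Igf2*, at 4337 CPM against 4901 to 6596 CPM in the other hearts. The summed level of 10 cardiomyocyte markers was lowest in the same heart (6432 CPM, against 9069 to 14180 CPM in the others). That heart also had the lowest erythroid sum (22.3 CPM) and the highest foregut (217 CPM) and neural (76.6 CPM) sums. *Sox2* gave 81.3 CPM of the foregut sum. *Sox2* and *Foxa2* were highest in that heart, but *Epcam*, *Cdh1*, *Shh* and *Nkx2-1* were not. *Sox10* gave 51.6 CPM of the neural sum, and all neural markers except *Stmn2* were highest there. The endothelial, epicardial, cushion mesenchyme and hepatic sums of *Smyd1-KO* heart 1 lay within the range of the other hearts. The part of cell composition in these values was not tested.

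In WT hearts the order of RNA levels per kilobase of exon ran from *Igfbp5* (260 CPM per kb) through *Igf2r* (149), *Igf2* (94.6), *Igfbp4* (92.2), *Igfbp2* (83.6), *Igfbp3* (18.9), *Igf1r* (7.56), *Stc2* (2.40) and *Igf1* (1.44) to *Stc1* (0.656). Neighbors in this order overlapped over the WT hearts for *Igf2* with *Igfbp4* and for *Igfbp4* with *Igfbp2*, and the other neighbors did not. With the longest transcript as the length, 7 of the 10 levels moved by more than 1 SD, and *Igfbp2* (118 CPM per kb) stood above *Igf2* (115) and *Igfbp4* (106) in WT hearts. The order of the other 7 genes was unchanged by that length. In *Smyd1-KO* hearts the mean of *Igfbp2* was first (236 CPM per kb), ahead of *Igfbp5* (210), and *Stc2* (18.9) stood above *Igf1r* (9.09).

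The wider pathway was read from 38 other genes, grouped by role, of which 34 passed the filter on low counts. The exceptions were *Igfbp1*, *Adam28*, *Ins1* and *Ins2*. edgeR called 1 of the 34 higher in *Smyd1-KO* hearts, against 2.86% of all tested genes, and 0 lower, against 1.42%. At an unadjusted *P* under 0.05 by edgeR there were 10 of the 34 genes, 2 of them lower, against 4857 of all 19372 tested genes. DESeq2 called 2 of the pathway genes higher and 1 lower, against 1126 higher and 625 lower of the 19605 genes that it tested. The median log2 fold change of the 34 genes was 0.06.

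The called gene was *Foxo3*, a forkhead transcription factor that AKT keeps out of the nucleus when growth factors signal. It rose from 49.3, 55.6 and 49.2 CPM in WT hearts 1, 2 and 3 to 115, 108 and 121 CPM in *Smyd1-KO* hearts (log2 fold change 1.16, SE 0.0848, adjusted *P*=0.00122 by edgeR). The groups did not overlap. The other 17 relay genes between receptor and nucleus were not called. With *Foxo3* counted, 7 of the 18 relay genes did not overlap, 6 of them higher, against 31.3% of all tested genes. An unadjusted *P* under 0.05 by edgeR was found in 5 of the 18, 0 of them lower, against 4857 of all 19372 in either direction. The lowest log2 fold change of a relay gene was that of the adaptor *Grb14* (-0.42, adjusted *P*=0.409 by edgeR). *Insr* was at 49.6 ± 8.05 CPM in WT and 49.5 ± 14.2 CPM in *Smyd1-KO* hearts (SD, n = 3). *Insrr*, an orphan receptor of the insulin receptor family, had 4 to 42 counts per heart and a log2 fold change of 1.74 (adjusted *P*=0.110 by edgeR, 0.0476 by DESeq2).

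Of 4 tested IGFBP proteases edgeR called 0 in either direction, 2 had an unadjusted *P* under 0.05 and DESeq2 called 0. Over all tested genes, 4857 of 19372 had such an unadjusted *P* by edgeR, in either direction. *Pappa*, the stanniocalcin target, was at 14.7, 16.7 and 16.7 CPM in WT hearts and at 41.7, 16.2 and 24.6 CPM in the *Smyd1-KO* hearts 1, 2 and 3. *Smyd1-KO* heart 2 lay inside the WT range and *Smyd1-KO* heart 1 far above it (log2 fold change 0.78, SE 0.310, adjusted *P*=0.172 by edgeR). *Htra1* had a log2 fold change of 0.81 and *Pappa2*, on 9 to 124 counts per heart, of -0.93, neither of them called. Of the 4 other tested binding protein genes 0 were called by edgeR. At an unadjusted *P* under 0.05 there were 2, both lower, against the same 4857 of 19372 tested genes in either direction. *Igfbpl1*, an IGFBP-like gene, was at 33.6, 39.6 and 25.0 CPM in WT hearts and at 15.1, 21.1 and 22.4 CPM in *Smyd1-KO* hearts. Its groups did not overlap (log2 fold change -0.74, SE 0.208, adjusted *P*=0.0830 by edgeR), and DESeq2 called it lower (adjusted *P*=0.00966). *Igfbp6* had a log2 fold change of -1.31 on 6 to 36 counts per heart, and *Igfals* had 0.29 on 7 to 29 counts.

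Of the 6 genes of the *Igf2* locus and of *Igf2* mRNA binding, edgeR called 0, DESeq2 called 0 and 0 had an unadjusted *P* under 0.05. *H19* was at 5337 ± 411 CPM in WT and 5569 ± 1144 CPM in *Smyd1-KO* hearts (SD, n = 3; log2 fold change 0.06, adjusted *P*=0.850 by edgeR). *Igf2bp2*, an mRNA-binding protein gene, had the highest log2 fold change (0.19) and *Igf2os*, antisense to *Igf2*, the lowest (-0.26). *Igf2os* overlaps *Igf2*, and *Airn* overlaps *Igf2r*, both on the opposite strand. The strand setting of the counting is not given in the sources used here, so reads of such pairs may not be told apart.

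**Figure D3:**
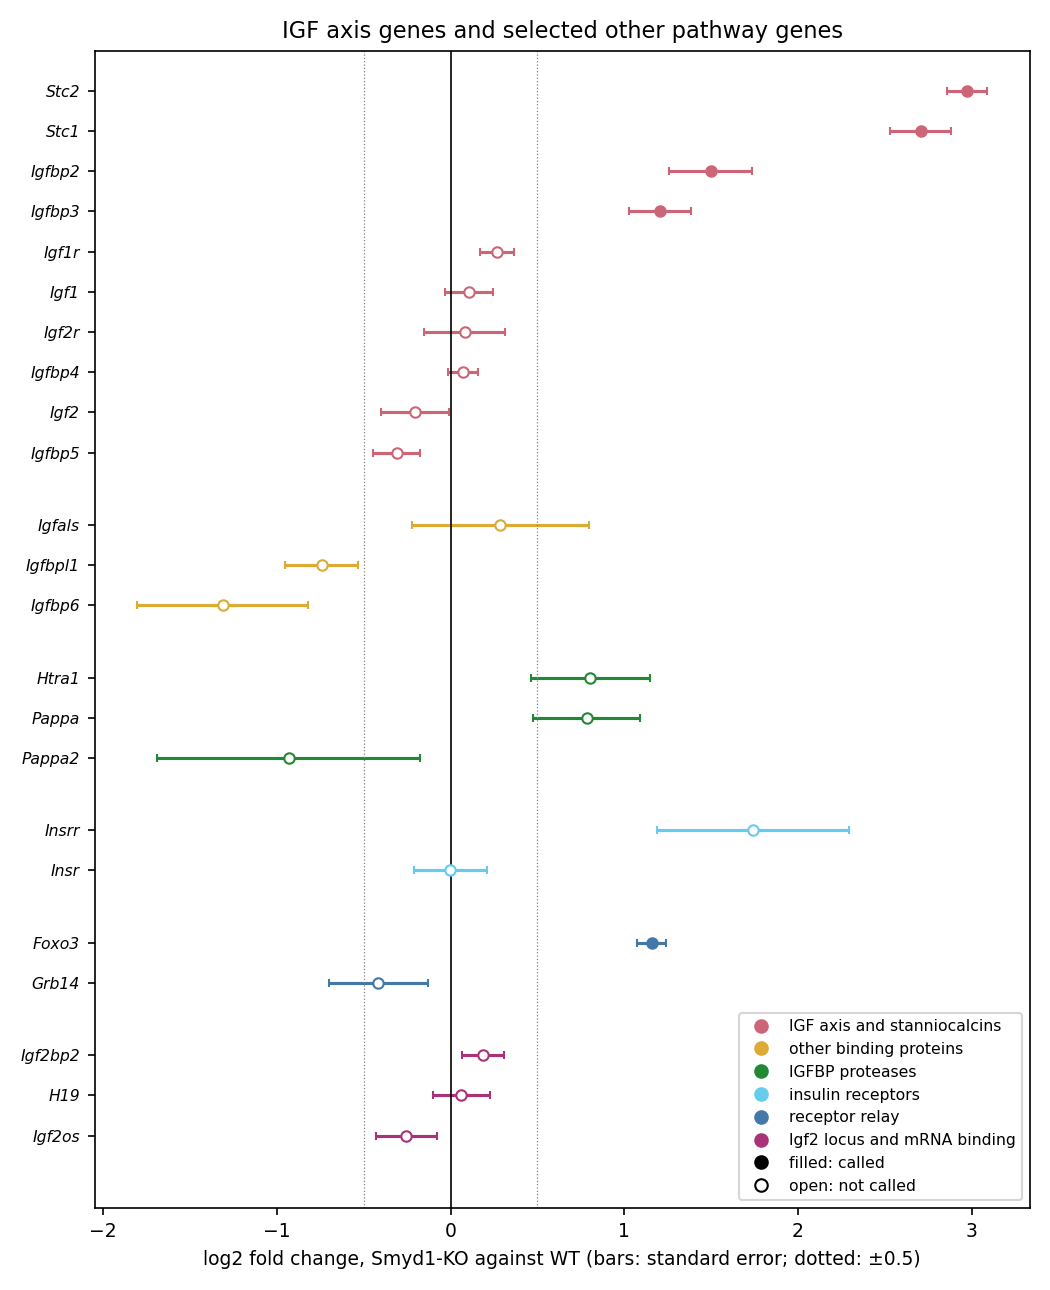
log2 fold change of *Smyd1-KO* against WT hearts (horizontal axis) with its standard error for the 10 genes and those other tested pathway genes whose values are given above, colored by role, filled where called and open where not. Of the genes plotted, filled points are limited to *Stc2*, *Stc1*, *Igfbp2*, *Igfbp3* and *Foxo3*, and dotted lines mark 0.5 on either side of 0.

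Markers of the cell types that a dissected heart could hold were read in each heart. In bulk RNA, fewer cells of a type and less RNA per cell cannot be told apart. The 10 cardiomyocyte markers summed to 6432 to 13700 CPM in *Smyd1-KO* and 9069 to 14180 CPM in WT hearts. The 7 epicardial and proepicardial markers summed to 270 to 477 CPM in *Smyd1-KO* and 161 to 195 CPM in WT hearts, with no overlap. All 7 had a positive log2 fold change and 1 was called, *Krt19* (1.75, adjusted *P*=0.0173 by edgeR). *Krt19* alone gave 129 to 235 CPM of the sum in *Smyd1-KO* and 43.3 to 73.4 CPM in WT hearts. The genotypes did not overlap in *Krt19* and *Upk3b* but did in *Wt1*, *Tbx18*, *Tcf21*, *Upk1b* and *Aldh1a2*. The 8 erythroid markers summed to 22.3 to 254 CPM in *Smyd1-KO* and 694 to 935 CPM in WT hearts, and 2 of them were called lower. The sums of the endothelial, cushion mesenchyme, hepatic, foregut and neural lists overlapped between the genotypes, and no marker of any list was at 0 in all hearts. Single markers of these lists were separated, though none was called. Higher in every *Smyd1-KO* heart than in every WT heart were *Kdr* (log2 fold change 0.70) and *Col1a1* (2.59). *Nfatc1* (-0.83), *Npr3* (-0.52) and *Nkx2-1* (-2.56) were lower in the same way. Over all tested genes, 31.3% did not overlap. The hepatic sum, which reached 67.8 CPM in *Smyd1-KO* heart 3, was 0.913 CPM in *Smyd1-KO* heart 2, where *Stc2* and *Igfbp3* were highest. *Igfbp2* was highest in *Smyd1-KO* heart 3, which also had the highest hepatic, epicardial, cushion mesenchyme (3301 CPM) and endothelial sums. The endothelial sum was 929.5 CPM there, against 603 to 732 CPM in the other hearts. Most of that cushion mesenchyme sum came from *Col1a1* (1431 CPM), *Col3a1* (792 CPM) and *Postn* (617.5 CPM). *Pdgfra* and *Msx1* were also highest in *Smyd1-KO* heart 3, *Twist1* and *Sox9* lay within the range of the other hearts, and *Prrx1* (18.8 CPM) was lowest. The part of these cell types in the higher *Igfbp2*, *Igfbp3*, *Stc1* and *Stc2* was not tested.

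**Figure D4:**
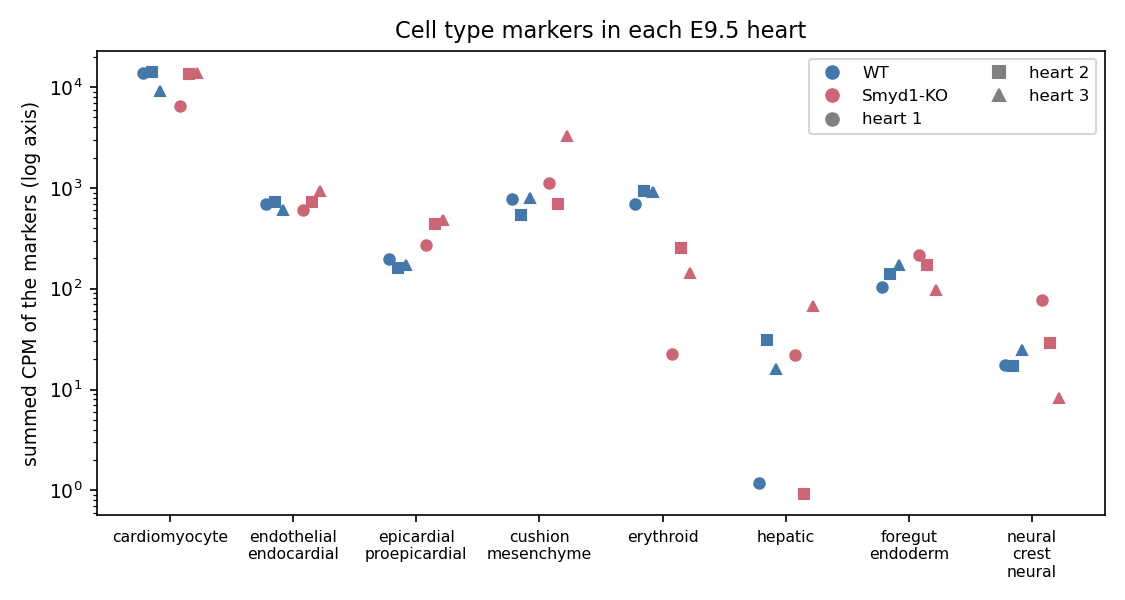
Summed CPM (log axis) of the markers of 8 cell types in each WT (blue) and *Smyd1-KO* (red) heart, with the symbol giving the heart number. The genotypes are separated in the epicardial and proepicardial list, where *Smyd1-KO* hearts are higher, and in the erythroid list, where they are lower.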

How the data were processed

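The authors selected poly A RNA, used STAR, run within bcbio-nextgen, to align paired-end reads to mm10, and deposited whole-number counts per Ensembl gene without normalization. The counting tool and annotation release are not given in the sources used here. A second deposited table holds a normalized signal, the counts divided by 1 size factor per heart, and was used only to check the columns. All 12 columns had a sample. Hearts of 1 genotype differed by more than sampling noise.

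Genotypes were compared with edgeR 4.0.16 in R 4.3.3 (filterByExpr, TMM, quasi-likelihood test with genotype as the only term) over 19372 genes with Benjamini-Hochberg adjustment. The standard error is the log2 fold change divided by the square root of the F statistic. log2 CPM used a prior count of 2. DESeq2 1.42.0, other normalizations, filters, the replicate block and leaving out each heart were the alternatives. The fit was tested on simulated data. Positions and exon lengths came from GENCODE M21 (GRCm38), and figures were drawn with matplotlib 3.10.9.

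The 10 genes, the pathway lists and the marker lists were chosen with earlier results of these data known. Named are all 10 genes, called pathway genes, the highest and lowest of each pathway list and the 3 genes most like *Stc2* and *Igfbp5*. *Igfbpl1*, *Pappa*, *H19*, *Airn* and the genes below the filter were named after their values were seen. Values of 1 pathway gene are not reported here.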

Additional observations from a re-analysis of the deposited data

How the results depend on the processing

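The replicate number was not a pairing by the labels, and deviations from the genotype mean correlated at -0.151 on average between same-numbered hearts and at 0.073 between the rest. No heart correlated best with its own number. Over all tested genes the calls numbered 555 higher and 275 lower, against 56 and 3 with the block, 1126 and 625 with DESeq2, and 89 to 809 and 8 to 447 with 1 heart left out. With the replicate block, 2 of the 10 genes were called higher (*Stc1* and *Stc2*), and the log2 fold changes of *Igfbp2* (1.52) and *Igfbp3* (1.20) were not called. With each heart left out in turn, 2 to 4 of the 10 genes were called higher (2 without WT heart 2 or without WT heart 3). The log2 fold change of *Igf2r* turned negative without *Smyd1-KO* heart 3 and ranged from -0.106 to 0.306 over the fits without 1 heart. *Stc1* stayed between 2.61 and 2.87 and *Stc2* between 2.87 and 3.07 over 13 alternatives each. Of the other pathway genes, DESeq2 called 2 higher (*Foxo3* and *Insrr*) and 1 lower (*Igfbpl1*), and without a limit on the fold change edgeR called 2 higher. The cause of these differences was not tested. Depth limits *Insrr*, *Igfbp6*, *Igfals* and *Igfbp1*, each with fewer than 50 counts per heart. With the longest transcript as the length, a choice added after the data were seen for the ratios, *Stc2* was 4.87 times as abundant as *Stc1* in WT and 5.70 times in *Smyd1-KO* hearts.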
